A study of Mus musculus with 4 samples.

Results

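Toll-like receptors are membrane proteins of innate immunity that recognise conserved molecules of microbes, and Myd88 is the adaptor that carries the signal of nearly all of them. Expression of Tlr1 to Tlr9 and of Myd88 was read from the deposited arrays of colonic mucosa from C57BL/6 mice. All gene probes whose accession belongs to one of these 10 genes were taken, which gave 10 probes of the 41174 distinct probes on the array. The 10 probes covered 9 of the 10 genes, with 2 probes for Tlr3 and 1 for each of the others, and no probe was matched to Tlr5. The rule itself uses no measured value, but the genes and the gene lists below were chosen with earlier results of these data known.

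Mice of postnatal day 90 (P90) were compared with mice of postnatal day 30 (P30) on 4 arrays, which the sample titles letter a, b, e and k. Both ages were of the same strain and tissue, and neither the sex of the mice nor any treatment is given in the labels. The mucosa was scraped off with a microscope slide, so each RNA comes from a mix of epithelial, immune and stromal cells of unstated proportions. Each array held 1 P90 and 1 P30 RNA in opposite dyes, with P90 in Cy3 on a, b and k and in Cy5 on e. The labels call the 4 comparisons independent and do not say whether each RNA came from a separate animal, so a p-value here rests on the spread among these pairs, and some of it may be technical.

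Receptors at the cell surface bind bacterial products: Tlr4 with its partner Ly96 binds lipopolysaccharide, Tlr5 binds flagellin, and Tlr2 binds lipoproteins as a pair with Tlr1 or Tlr6. Tlr3, Tlr7, Tlr8 and Tlr9 sit in endosomes, where Tlr3 binds double-stranded RNA, Tlr7 and Tlr8 single-stranded RNA, and Tlr9 DNA with unmethylated CpG. All but Tlr3 use Myd88, which recruits the Irak kinases and Traf6 and leads to NF-kappaB, whereas Tlr3 signals through Ticam1 (also called TRIF). In the gut the receptors are found on macrophages and other immune cells and, for some members, on the epithelium. In bulk tissue, fewer cells of a type and less RNA per cell cannot be told apart.

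RefSeq promoters (GRCm38.p6, 250 bases before to 50 after the gene's start) were matched for 8 of the 10 genes. They are shown for Myd88 and 4 receptors, chosen for their motif matches or, for Tlr2, for its spread between arrays. Capitals mark matches on either strand to 3 motifs: GAAA repeated once with any pair of bases between (the core of the interferon-stimulated response element), GGG and TTTCC with any pair of bases between (resembling an NF-kappaB site), and GAGGAA (resembling a site of the myeloid factor PU.1). No promoter shown holds overlapping matches, and of the 2 listed starts of Tlr1 the one with a match is shown. The sequences are printed in the direction of transcription.
Myd88, chr9:119339969-119340268, minus strand: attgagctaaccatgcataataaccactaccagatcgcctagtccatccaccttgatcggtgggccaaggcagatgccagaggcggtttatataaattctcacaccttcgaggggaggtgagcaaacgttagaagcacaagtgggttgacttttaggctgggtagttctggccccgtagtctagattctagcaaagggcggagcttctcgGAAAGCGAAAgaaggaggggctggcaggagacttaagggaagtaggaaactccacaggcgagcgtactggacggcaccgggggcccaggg
Tlr1, chr5:64933509-64933808, minus strand: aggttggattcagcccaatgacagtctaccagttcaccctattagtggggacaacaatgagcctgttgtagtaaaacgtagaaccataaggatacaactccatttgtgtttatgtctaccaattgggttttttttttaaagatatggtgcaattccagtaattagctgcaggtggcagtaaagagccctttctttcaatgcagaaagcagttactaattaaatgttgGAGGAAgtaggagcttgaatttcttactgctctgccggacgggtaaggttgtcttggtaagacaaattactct
Tlr2, chr3:83841559-83841858, minus strand: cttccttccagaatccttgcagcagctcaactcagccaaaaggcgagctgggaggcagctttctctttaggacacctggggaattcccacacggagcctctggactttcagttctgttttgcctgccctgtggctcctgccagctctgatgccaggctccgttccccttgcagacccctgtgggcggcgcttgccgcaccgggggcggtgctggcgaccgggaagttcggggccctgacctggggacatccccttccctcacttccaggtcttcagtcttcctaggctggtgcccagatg
Tlr3, chr8:45410331-45410630, minus strand: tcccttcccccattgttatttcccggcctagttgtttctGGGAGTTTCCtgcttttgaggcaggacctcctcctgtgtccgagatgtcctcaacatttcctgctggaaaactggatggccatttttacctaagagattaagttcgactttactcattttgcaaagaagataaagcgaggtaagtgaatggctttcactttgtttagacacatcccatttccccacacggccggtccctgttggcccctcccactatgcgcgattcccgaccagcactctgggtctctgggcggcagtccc
Tlr9, chr9:106222348-106222647, plus strand: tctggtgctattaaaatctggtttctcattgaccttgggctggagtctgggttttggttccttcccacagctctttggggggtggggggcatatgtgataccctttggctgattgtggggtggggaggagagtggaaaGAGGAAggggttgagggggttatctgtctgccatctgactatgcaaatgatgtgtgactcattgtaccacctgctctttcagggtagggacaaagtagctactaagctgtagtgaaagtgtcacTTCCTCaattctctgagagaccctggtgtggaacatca

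Myd88 holds 1 interferon-type match, GAAAGCGAAA, that begins at position -40 from the gene's start. Among all 32851 promoters of this length in the table, 3.44% hold such a match. Tlr3 holds an NF-kappaB-like match, GGGAGTTTCC, at position -211, which 1.63% of all promoters do. Tlr9 holds 2 PU.1-like matches, and Tlr1 and Tlr8 (not shown) hold 1 each, against 28.3% of all promoters with at least 1. Tlr2 holds none of the 3 motifs, as spelled here, in this window, and other forms of these sites were not searched. Tlr6 has 2 listed starts, and the window of one of them holds 2 overlapping interferon-type matches. The Tlr9 window contains 0 CpG dinucleotides, against 13 for Myd88 and a median of 7 over all promoters. A match is a description of letters and was not linked to binding. Tlr1 and Tlr6 are neighbours on chromosome 5 with 0 protein-coding genes between them, and so are Tlr7 and Tlr8 on chromosome X.

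Gene spots that the scanner software marked as well above background made up a share that ran from 55.6% to 69.3% in the P90 channels and from 64.6% to 71.0% in the P30 channels. With 4 arrays, their number limits the precision. All 7 epithelial markers looked up, such as Epcam and Cdh1, and all 5 colonocyte and goblet cell markers with a probe were well above background in both channels of every array. The log2 P90/P30 of arrays a, e and k correlated positively with each other across the genes tested, which are not independent replicates (Pearson r from 0.32 to 0.60). Array b correlated negatively with a (r = -0.31), e (r = -0.27) and k (r = -0.19). For a and b it was -0.303 over all probes. Directions follow the dyes given in the labels.

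No member passed a test over all genes for a difference between P30 and P90. Of the 9 genes with a probe, 7 passed the filter on dim probes (well above background on at least 3 arrays in one age's channel) and were tested. Each gene's mean log2 P90/P30 was tested against 0 with limma. None of the 7 passed at an adjusted p of 0.05, in a comparison in which 0 of 20825 genes (0%) did, and the smallest limma adjusted p among the members was 0.672, for Tlr1. At an unadjusted p below 0.05 there were 0 members, where 7.88% of all genes lay. With array b turned there were 2, Tlr1 and Tlr4, where 23.9% of all genes lay. No member had the same direction on all 4 arrays, against 14.1% of all genes (6.17% higher and 7.96% lower at P90 on all 4). Such counts rest on the labelled direction of array b: with it turned, Tlr1 and Myd88 had 1 direction on all 4 arrays, as did 33.4% of all genes. For none of the 7 were the P90 and P30 levels separate, against 2.66% of all genes. The median of the members was -0.02, and that of all genes tested was also -0.02.

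**Figure D1:**
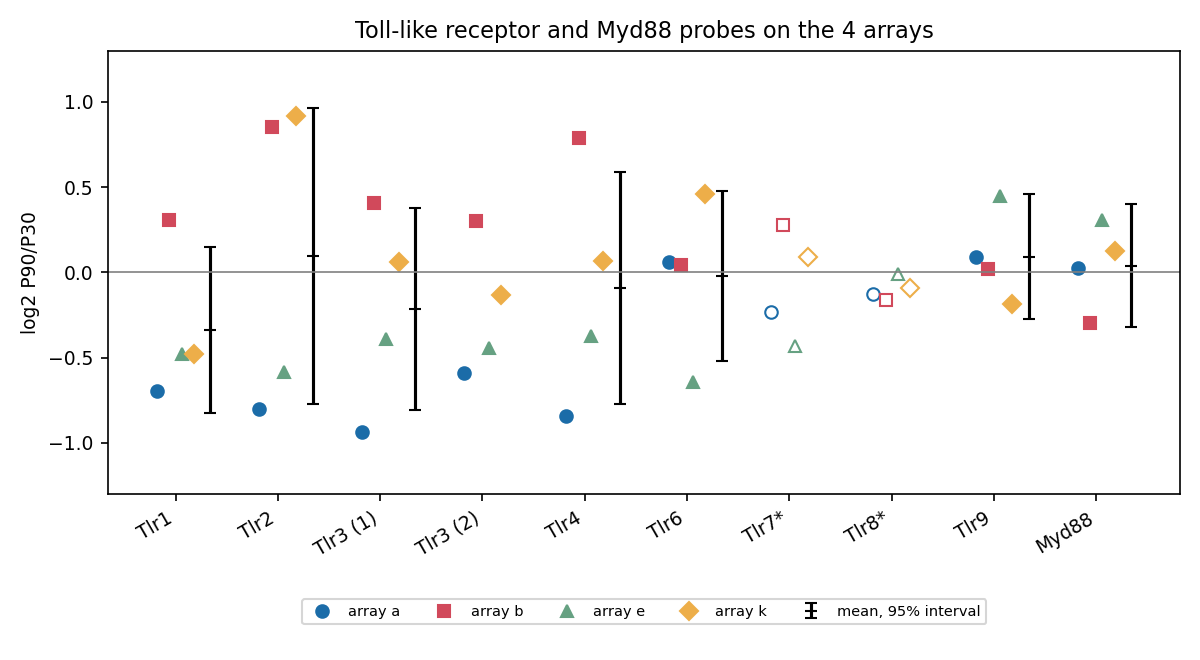
Log2 P90/P30 of every member probe on arrays a, b, e and k (markers), with the mean and its 95% interval (black) for the probe that stands for a tested gene. Open markers and asterisks are probes that did not pass the filter. Every interval includes 0, and Tlr1, Tlr2, Tlr3 and Tlr4 lie below 0 on arrays a and e and above 0 on array b.

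Among the surface receptors, Tlr2 varied most between arrays. This receptor recognises bacterial lipoproteins. Its normalized log2 levels at P90 were 10.91 (a), 11.89 (b), 11.32 (e) and 12.73 (k). At P30 they were 11.71 (a), 11.04 (b), 11.91 (e) and 11.81 (k). The P90 RNA of array k had the highest value of all 8 and that of array a the lowest, and the ages overlap. The log2 P90/P30 was therefore -0.80 (a), 0.86 (b), -0.58 (e) and 0.92 (k), that is from 0.574-fold to 1.89-fold. The mean was 0.10 ± 0.92 (SD, n = 4), with a limma adjusted p of 0.972 and a 95% interval from -0.77 to 0.97. That spread between arrays was larger than that of 92.8% of all genes tested. The mean lay below 0 without array b (-0.15) and without array k (-0.18), and was 0.40 without array a and 0.33 without array e, so no direction can be given.

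The Tlr2 probe is printed as 10 spots on each array, as are the probes of Tlr4 and Myd88, which separates the error of a spot from the spread between RNA pairs. For Tlr2 the SD between the 10 spots was 0.054 (a), 0.039 (b), 0.043 (e) and 0.050 (k). The lowest spot on array b was 0.77 and the highest spot on array a was -0.68. The spots of arrays b and k thus all lay above 0 and those of a and e all below. The SD between arrays was 19.7 times the mean SD between spots for Tlr2, 8.15 times for Tlr4 and 7.83 times for Myd88. Spots of 1 array share their RNA and labelling, so this compares printing and scanning error with everything that differs between pairs.

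**Figure D2:**
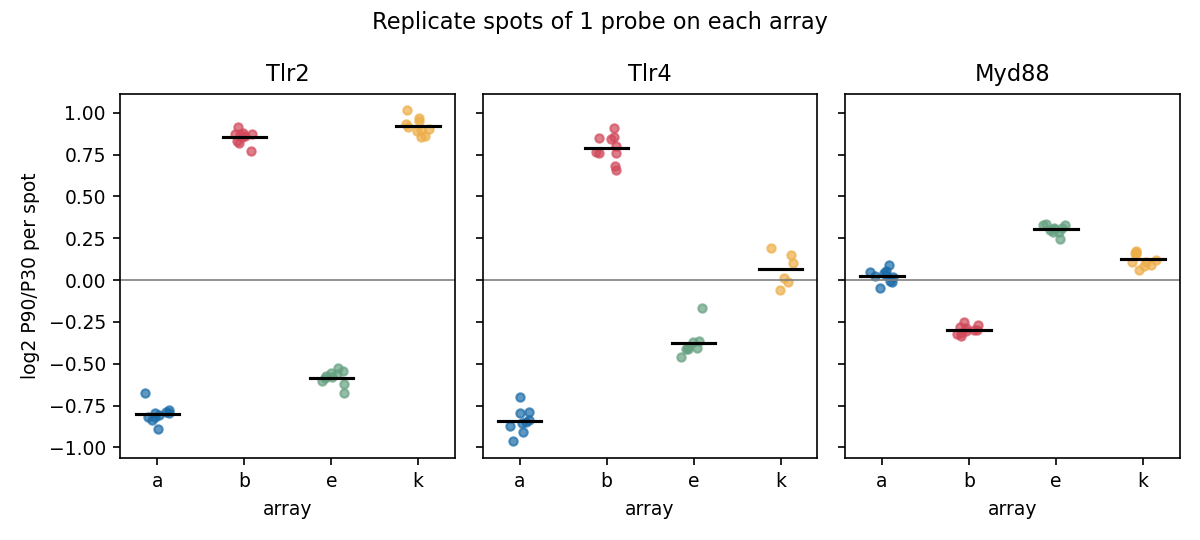
Log2 P90/P30 of each replicate spot of the Tlr2, Tlr4 and Myd88 probes on arrays a, b, e and k, with the mean as a black line. For Tlr2 the spots of array a lie between -0.89 and -0.68 and those of array k between 0.86 and 1.02.

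Tlr4, the lipopolysaccharide receptor, had the next widest spread of the receptors. Its log2 levels at P90 were 7.41 (a), 7.55 (b), 7.27 (e) and 6.82 (k). At P30 they were 8.25 (a), 6.76 (b), 7.64 (e) and 6.76 (k). The 4 P90 RNAs lay within the range of the 4 P30 RNAs, which was the wider one. The log2 P90/P30 was -0.84 (a), 0.79 (b), -0.37 (e) and 0.06 (k), with a mean of -0.09 ± 0.69 (SD, n = 4) and a limma adjusted p of 0.964. The mean was above 0 without array a (0.16) and near 0 without array e (0.0045), and was -0.38 without array b and -0.14 without array k. Between 6 and 10 spots per array entered these values, since spots marked as outliers were left out.

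Tlr1, which pairs with Tlr2, had the smallest p among the members. Its log2 levels at P90 were 10.54 (a), 10.98 (b), 10.02 (e) and 10.28 (k). At P30 they were 11.24 (a), 10.67 (b), 10.50 (e) and 10.76 (k). Tlr1 was lower at P90 on 3 of the 4 arrays, with log2 P90/P30 of -0.70 (a), 0.31 (b), -0.48 (e) and -0.48 (k). The mean was -0.34 ± 0.44 (SD, n = 4), a 0.791-fold level with a 95% interval from 0.565-fold to 1.11-fold, and the limma adjusted p was 0.672. Without array b the mean was -0.55 (limma adjusted p = 0.110), and without array a it was -0.22. Tlr6, the other partner of Tlr2 and the chromosomal neighbour of Tlr1, did not follow it: its log2 P90/P30 was 0.06 (a), 0.05 (b), -0.65 (e) and 0.46 (k). The mean of Tlr6 was -0.02 ± 0.46 (SD, n = 4), with an adjusted p of 0.991 by limma, and 0.19 without array e. Whether Tlr1 and Tlr6 differ from each other was not tested.

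**Figure D3:**
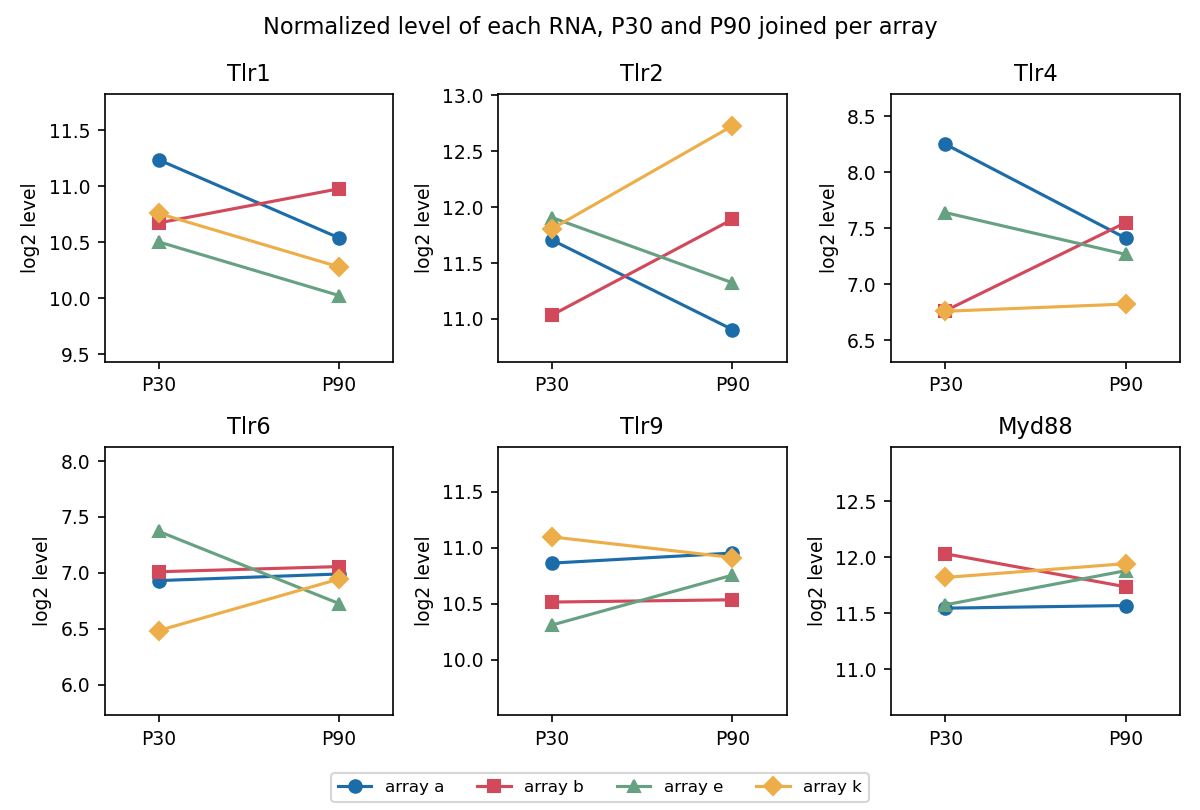
Normalized log2 level of 6 members in each RNA, with the P30 and the P90 RNA of an array joined by a line (each panel has its own vertical range of the same width). For Tlr2 and Tlr4 array b is higher at P90 where a and e are lower, while the lines of Tlr9 and Myd88 are flatter.

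Of the endosomal receptors, Tlr9 was measured most firmly. Its log2 levels at P90 were 10.95 (a), 10.53 (b), 10.76 (e) and 10.91 (k). At P30 they were 10.86 (a), 10.51 (b), 10.31 (e) and 11.10 (k). Every RNA lay between 10.31 and 11.10. The log2 P90/P30 was 0.09 (a), 0.02 (b), 0.45 (e) and -0.18 (k), with a mean of 0.09 ± 0.26 (SD, n = 4) and a limma adjusted p of 0.915. The 95% interval ran from 0.827-fold to 1.37-fold, and with median centring the mean was -0.30. Without the dye-swapped array e the mean was -0.02.

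Tlr3, the receptor for double-stranded RNA, was dim. The marks well above background were present in all 4 P30 channels and in 2 of the 4 P90 channels for each of its probes, so Tlr3 passed the filter through its P30 channels alone. On arrays a and k the P90 channel of the brighter probe was not well above background, and its ratios there are approximate. The P30 spot signal of the brighter probe was 285 on array a, with 67.5 in the surrounding background, and 94.5 on array k, with 73.5. Its log2 P90/P30 was -0.94 (a), 0.41 (b), -0.39 (e) and 0.06 (k), and that of the second probe was -0.59, 0.30, -0.44 and -0.13. The probes had the same sign on a, b and e. The mean of the brighter probe was -0.22 ± 0.58 (SD, n = 4), with a limma adjusted p of 0.852, and that of the second was -0.22 ± 0.39. The mean rested on array a, without which it was 0.02, and was -0.42 without array b. The size depended on the processing as well: it was -0.86 with processed signals before the same loess step (limma adjusted p = 0.740) and -0.91 when the scanner's own log ratios were used (limma adjusted p = 0.759).

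Tlr7 and Tlr8, the receptors for single-stranded RNA, were too dim to test. The Tlr7 probe was well above background in 1 of 4 P90 channels and 2 of 4 P30 channels. Its log2 P90/P30 was -0.23 (a), 0.28 (b), -0.43 (e) and 0.09 (k). On array k neither channel was well above background, so no direction is read from these values. The Tlr8 probe was not well above background in any of the 8 channels, with spot signals at P90 of 55, 57, 72 and 59 on a, b, e and k against local backgrounds of 44, 47, 66 and 40. No fold is given for Tlr8.

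Myd88 itself was the steadiest of the tested members. Its log2 levels at P90 were 11.57 (a), 11.74 (b), 11.88 (e) and 11.94 (k). At P30 they were 11.54 (a), 12.03 (b), 11.57 (e) and 11.82 (k). All 8 RNAs lay between 11.54 and 12.03, and the ages overlap. The log2 P90/P30 was 0.02 (a), -0.30 (b), 0.31 (e) and 0.12 (k), with a mean of 0.04 ± 0.25 (SD, n = 4) and a limma adjusted p of 0.972. The 95% interval of the change ran from 0.800-fold to 1.32-fold. Its spread between arrays was larger than that of 32.3% of all genes tested. The mean was -0.05 without array e and 0.15 without array b.

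Tlr1, Tlr2, Tlr3 and Tlr4, 4 of the 7 tested members, were lower at P90 on arrays a and e and higher on array b. The same held for 24.5% of all genes tested. The pattern was taken from the members' own values, and the difference between these shares was not tested. Of these 4 receptors, Tlr3 had passed the filter through P30 alone, with a dim P90 channel on array a. Myd88 and Tlr9 had the higher P90 value on array e, where those 4 receptors had the lower one, but differed in sign from each other on b and k. Tlr6 shared neither description, being above 0 on a, b and k and below 0 on e. By the Euclidean distance of the 4 log2 P90/P30 values, Myd88 and Tlr9 were 0.47 apart, and the farthest pair of members was Tlr2 and Tlr9 (1.94). The smallest distance, 0.40 between Tlr3 and Tlr4, includes the approximate ratios of Tlr3. By the same measure over the 4 arrays, the named genes most like Tlr2 were Nrros (0.21), Gm6548 (0.42), A4gnt (0.44) and Gzmb (0.46). Those most like Myd88 were Agbl5 (0.048), Osr1 (0.052), Doxl1 (0.067) and Olfr1497 (0.087).

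Markers of macrophages were split between the arrays. Of 10 macrophage markers, 9 had a probe and were tested, 7 of them well above background in every channel and none below it everywhere. Their median log2 P90/P30 was -1.297 (a), 0.86 (b), -0.57 (e) and -1.42 (k), with Aif1 at -0.64 ± 1.05 and the complement gene C1qc at -0.71 ± 1.36 (SD, n = 4). The mean level of the list ran from 7.16 to 8.58 at P90 and from 7.40 to 9.24 at P30. On a, b and e the macrophage markers had the signs of Tlr1, Tlr2, Tlr3 and Tlr4. On array k all 9 lay below 0, from -1.93 for C1qc to -0.18 for Lyz2, where Tlr1 was at -0.48 and Tlr2 at 0.92. The part of macrophages in the receptor values was not tested.

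The endothelial markers had medians of -0.81, 0.88, -0.65 and -1.50 on arrays a, b, e and k over 5 genes, and the fibroblast markers of -3.94, 1.45, -2.32 and -3.22 over 6. The endothelial genes Cdh5 and Plvap were at -0.49 ± 1.06 and -0.58 ± 1.43, and the collagen genes Col1a2 and Col3a1 at -2.11 ± 2.53 and -2.45 ± 2.73 (SD, n = 4). The dendritic, T and B cell lists were nearer to 0 on every array than the macrophage list: medians per array lay between -0.07 and 0.20 for the dendritic cell list (4 genes) and for the T cell list (6 genes), and between 0.002 and 0.14 for the B cell list (6 genes). Among these, Itgax and Xcr1 of dendritic cells were at 0.21 ± 0.64 and -0.03 ± 0.46, and Cd79b of B cells at 0.20 ± 0.87. The T cell genes Cd3g and Thy1 were at 0.39 ± 0.52 and -0.19 ± 0.77 (SD, n = 4). Only 3 of 5 dendritic and 3 of 7 B cell markers with a probe were well above background in every channel, against 6 of 6 T cell markers. At P90 the mean level ran from 6.73 to 6.84 for the dendritic cell list and from 6.56 to 6.82 for the B cell list. These 2 lists were thus dim, and their medians near 0 are not read as unchanged cell content. The neutrophil list (2 genes tested) had medians of 0.34, -0.26, 1.05 and 0.51, with S100a9 at 0.79 ± 0.94 and Mpo at 0.03 ± 0.25. The smooth muscle list (5 genes) had a median below 0 on array k (-1.22) and above 0 on the others, and the adipocyte list (6 genes) had medians of 0.41, 2.35, 5.78 and 0.65. Tagln and Acta2 of smooth muscle were at 0.16 ± 0.95 and -0.0022 ± 0.69, and Cidec of adipocytes at 0.77 ± 1.74. Cidec was below 0 on a (-0.31) and k (-0.62), whereas 4 of the 6 adipocyte genes were higher at P90 on all 4 arrays, as were 6.17% of all genes. None of the 6 was called by limma after adjustment. The part of these cell types in the members' values was not tested either.

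**Figure D4:**
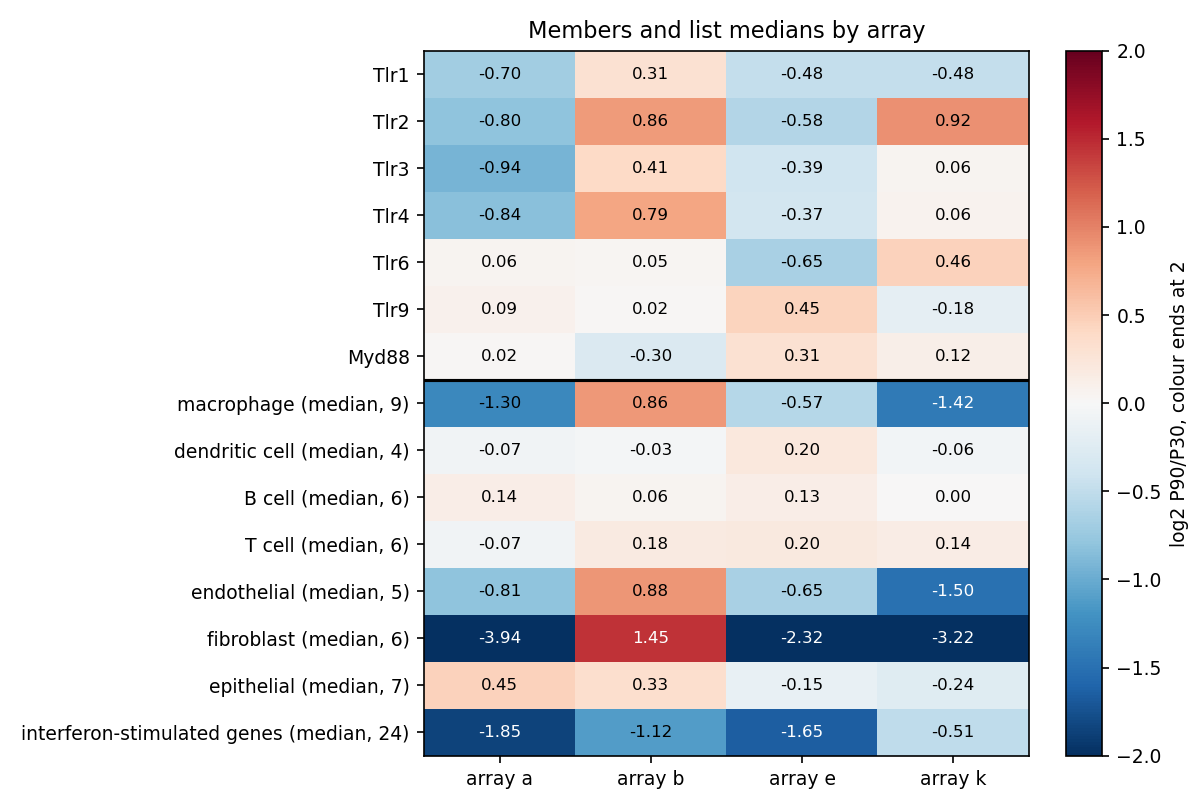
Log2 P90/P30 on each array of the 7 tested members (above the line) and of the median of cell type lists and interferon-stimulated genes (below it, with the number of genes). Blue is lower and red higher at P90, and colours end at 2 on either side. Macrophage, endothelial and fibroblast lists are blue on a, e and k and red on b, whereas Tlr2 is red on both b and k. Krt8, Krt18, Krt20 and Vil1 of the epithelial list were saturated in at least 1 channel of all 4 arrays. The epithelial medians are therefore not read as measured changes.

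Genes that act beside the receptors at the membrane were as mixed. Of 6 coreceptor genes, 5 were tested, 0 were called by limma after adjustment and 0 had 1 direction on all 4 arrays. Cd14, which hands lipopolysaccharide to Tlr4, had a log2 P90/P30 of 0.59 (a), -0.73 (b), 0.35 (e) and 0.56 (k), opposite in sign to Tlr4 on a, b and e. Ly96, the secreted partner of Tlr4, was at -0.06 ± 0.21 (SD, n = 4). Of 4 genes for receptor trafficking, none was called and the median was 0.05. Unc93b1, which carries the endosomal receptors out of the endoplasmic reticulum, was at 0.17 ± 0.43, and the chaperone gene Hsp90b1 at -0.38 ± 0.77.

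Of the other 4 adaptors with the same interaction domain, 2 were tested. Ticam1, the adaptor of Tlr3, was at 0.31 ± 0.52 (SD, n = 4) and Tirap, which bridges Tlr2 and Tlr4 to Myd88, at -0.13 ± 0.43. Cytokine receptors of the interleukin-1 family signal through Myd88 as well, and 4 of 6 were tested, with none called. All 4 had a mean below 0, as did 54.4% of all genes. Il1rl1, the receptor for interleukin-33, was lower at P90 on all 4 arrays, with log2 P90/P30 of -1.59 (a), -0.58 (b), -1.28 (e) and -0.98 (k). Its mean was -1.11 ± 0.43 (limma adjusted p = 0.618). Il1r1, the interleukin-1 receptor, was at -0.68 ± 1.04.

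Of 17 kinase and ubiquitin ligase genes downstream of Myd88 and Ticam1, all were tested and none was called. Their means lay below 0 for 12 and above for 5, where 54.4% of all genes lay below 0, and the median was -0.29. Irak1, the kinase recruited by Myd88, was below 0 on all 4 arrays, with a mean of -0.29 ± 0.18 (SD, n = 4, limma adjusted p = 0.628), and so was Traf3, which links Ticam1 to interferon induction, at -0.42 ± 0.47, although its value on array b rounds to 0.00. The kinase gene Irak2 was at 0.33 ± 0.45 and Tab1, a subunit of the kinase complex that Traf6 activates, at 0.18 ± 0.35. Of 8 transcription factor genes, 6 were tested, none was called, and 3 had an unadjusted limma p below 0.05, as did 7.88% of all genes. That count was 5 of 13 for the sensors outside the family and 21 of 24 for the interferon-stimulated genes described below. It was at most 1 in each other pathway list. Irf7, the interferon-inducible factor that acts below Tlr7 and Tlr9, had values of -0.76 (a), -0.82 (b), -0.92 (e) and -0.45 (k) (mean -0.74 ± 0.20, limma adjusted p = 0.618). Nfkb2 and Relb, which form the non-canonical NF-kappaB, were above 0 on all 4 arrays, at 0.54 ± 0.34 and 0.49 ± 0.32 (limma adjusted p = 0.618 for each). On array b their values were near 0, at 0.055 and 0.081. Irf3, which acts below Tlr3, was at 0.17 ± 0.22.

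Of 10 inhibitors of the pathway, 10 were tested and 0 were called, with a median of -0.02. Nfkbia, which holds NF-kappaB in the cytoplasm and is itself induced by it, had nearly the same value on every array: -0.14 (a), -0.15 (b), -0.21 (e) and -0.18 (k). Its mean was -0.17 ± 0.04 (SD, n = 4, limma adjusted p = 0.715). Bcl3 was at 0.38 ± 0.54. Of 21 NF-kappaB target genes, 12 were tested, 8 had a mean above 0 and 4 below, and 0 were called. Reg3g, an antimicrobial lectin of the epithelium whose expression in the gut needs Myd88, was below 0 on all 4 arrays, at -2.82 (a), -0.14 (b), -2.36 (e) and -1.73 (k) (mean -1.76 ± 1.17, limma adjusted p = 0.618). Its relative Reg3b was at -1.60 ± 2.54, with -5.39 on array a, and its P30 channel was saturated on e and k, so the ratios there are bounds only. Saa3, an acute phase gene, was at 1.05 ± 1.74. The inflammatory cytokine genes Il6, Il23a and Csf3 and the enzymes Nos2 and Ptgs2 did not pass the filter on dim probes.

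Sensors outside the family and interferon-stimulated genes were compared in the same fit. Both lists were chosen with earlier results of these data known, so their counts are not a test. Of 17 sensor genes, 13 were tested and none was called. A mean below 0 was found for 11, as for 54.4% of all genes. On all 4 arrays 4 were below 0, as were 7.96% of all genes, a count that rests on the labelled direction of array b. Zbp1, a sensor of nucleic acids that interferon induces, was at -1.12 ± 0.54 (SD, n = 4), Ddx58, the RNA sensor RIG-I, at -0.68 ± 0.57 and the DNA sensor Cgas at -0.43 ± 0.26. The inflammasome genes Pycard and Casp1 were at -0.28 ± 0.22 and -0.60 ± 0.68, with Pycard saturated in the P30 channel of array k. Of 26 interferon-stimulated genes, 24 were tested, with 23 means below 0, 20 genes lower at P90 on every array, none called and a median of -1.23 against -0.02 for all genes. Of all genes 7.96% were lower on every array. With array b turned 0 of the 24 were, against 19.1% of all genes. For the 20 genes this follows from the turn itself, as each was below 0 on array b. Isg15, Oasl2 and Rtp4 of that list were at -2.46 ± 1.13, -2.43 ± 1.13 and -2.31 ± 1.05. Lgals3bp was at -1.23 ± 0.53, with its P30 channel saturated on array a, and Irf1, the exception, at 0.15 ± 0.34. Of the 19 genes of that list with a promoter in the table, 11 held the interferon-type motif, as does Myd88, whose mean was 0.04. Whether Myd88 differed from those genes was not tested.

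The direction of the mean was not stable for 6 of the 7 members. Over 18 alternative settings no member passed the adjusted limma test, and 19 of 125 member values had the opposite sign to the reported one. Changing the filter, averaging a gene's probes or leaving out saturated spots did not move the members' means. Those settings could not turn a sign, and others read array b or e against its labelled dyes. Tlr1 kept a mean below 0 in all 18, from -0.74 to -0.098, with limma adjusted p from 0.0937 to 1. With median centring in place of the intensity-dependent correction, all 7 members lay below 0. That setting moved the median of all genes by -0.19, and Myd88 then stood at -0.35, Tlr2 at -0.29 and Tlr9 at -0.30. With array b read against its labelled dyes, Tlr1 was at -0.49, Tlr2 at -0.33 and Tlr4 at -0.48, with limma adjusted p of 0.0937, 0.560 and 0.185.

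**Figure D5:**
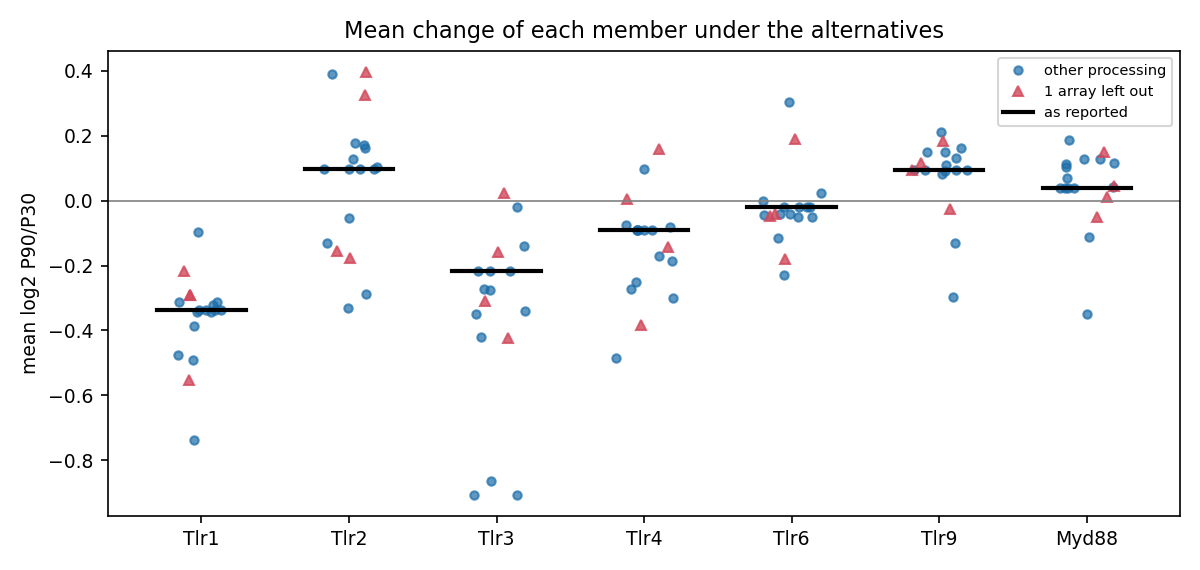
Mean log2 P90/P30 of each tested member as reported (black line), under other processing settings (blue circles) and with 1 array left out (red triangles). All values of Tlr1 are below 0, and the other 6 members have values on both sides of 0.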

How the data were processed

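The authors deposited 4 scanner files with linear spot intensity before normalization and the local background of each channel. The deposited log10 ratios (Cy5 over Cy3) come from background-subtracted, dye-scaled signals, per the file headers. The value table was found to hold deposited log2 ratios of P90 over P30: between 80.0% and 87.0% of probes per array lay within 0.01 of the scanner log ratio turned by the labelled dyes. Its column medians were 0.21, -0.17, 0.05 and 0.17 for a, b, e and k. How it was centred is not given in the sources used here. Marks for outliers, saturation and background are of the deposited scanner files and have no unit (other). Images were read with Agilent Feature Extraction 10.5.1.1, per the file headers, or 8.5.1.1, per the submitters' processing notes.

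Background was corrected on median signals with normexp (offset 50), followed by loess within each array (span 0.3), in limma 3.58.1 under R 4.3.3. Levels of single RNAs were taken after scaling of mean intensity between arrays (Aquantile); they are open to dye bias, as 3 of 4 P90 RNAs carried Cy3. Probes well above background on at least 3 arrays in one age were kept (27055 probes, 20825 genes). The brightest probe stood for its gene. Means were tested with lmFit and eBayes, adjusted by Benjamini-Hochberg at 0.05. The fit was checked on simulated data with changes of 3 in log2, larger than any member's. That check does not show whether changes of the members' size would be called. Of 41174 probes 25097 were named through RefSeq accessions (GRCm38.p6). The array's positions belong to another build, so probe coordinates are not given. Members and lists were chosen with earlier results of these data known. Named from each pathway list were the members past the test, otherwise up to 3 with 1 direction on all 4 arrays and the 2 of highest intensity, and from marker lists the 2 of highest intensity. Krt8, Krt18, Clca1, Aqp8 and Fabp4, saturated on some or all arrays, are given without values, and 1 other marker gene is not reported here.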

Additional observations from a re-analysis of the deposited data

Results flagged for a closer look

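Among 91 sets of 4 values tested for a single distant array, 3 had one, where chance gives about 1 in 20. Irak2, a kinase recruited by Myd88, had a log2 P90/P30 of -0.344 on array k against 0.58, 0.50 and 0.59 on a, b and e. Reg3b, the antimicrobial lectin, had -5.39 on array a against -0.01, -0.65 and -0.36 on b, e and k. Its P30 channel was saturated on e and k, so the distance has no fixed size. Plvap, a gene of fenestrated endothelium, had 1.54 on array b against -1.345 on a, -1.001 on e and -1.518 on k. None of the 3 is a receptor, and no member probe had such an array, in its ratio or in either age's level.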

How the results depend on the processing

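In all 18 alternatives no member gene and, in the 17 that fit probes singly, no member probe was called. Over all genes 0 were called as reported; 1 was called with the smaller normexp offset and 2 each with processed signals, with the scanner's log ratios and with the value table. With 1 array left out the members' median ran from -0.18 to 0.04, and with array b turned it was -0.33, within its spread between arrays. Signs turned as follows. With median centring Myd88 was at -0.35, Tlr2 at -0.29 and Tlr9 at -0.30. With array e unturned Myd88 was at -0.11, Tlr4 at 0.097, Tlr6 at 0.30 and Tlr9 at -0.13. Tlr2 was at -0.33 with array b turned, -0.13 with a dye term and -0.055 with array weights, and Tlr6 at 0.025 with processed signals. With 1 array left out the range was -0.18 to 0.40 for Tlr2, -0.42 to 0.02 for Tlr3, -0.38 to 0.16 for Tlr4, -0.18 to 0.19 for Tlr6, -0.0247 to 0.19 for Tlr9, -0.0496 to 0.15 for Myd88 and -0.55 to -0.22 for Tlr1. The cause was not tested. Tlr3 has no value with the filter that asks for signal in every channel, and Tlr7 and Tlr8 enter only without the filter on dim probes. Each ratio pairs 1 P90 with 1 P30 RNA, so the test is paired by design, and there is no fit with a further replicate block.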

Other observations

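Irak3, the kinase-like inhibitor that myeloid cells use to damp signalling from Myd88, was singled out after its values were seen. Its log2 P90/P30 was -0.54 (a), 0.19 (b), -0.55 (e) and 0.80 (k), with the signs of Tlr2 on every array (mean -0.02 ± 0.65, SD, n = 4, limma adjusted p = 0.993). Several signalling genes of the pathway had the signs of the macrophage list on all 4 arrays, also noticed after their values were seen. The endothelial and fibroblast medians had these same signs, so the pattern is not particular to macrophages. Over all genes, 19.1% were lower at P90 on arrays a, e and k and higher on b. Tbk1, the kinase that activates Irf3, was at -1.67 (a), 0.57 (b), -0.73 (e) and -0.61 (k). Tab2 was at -1.95, 0.85, -1.20 and -0.53, Chuk at -1.68, 1.11, -0.65 and -1.33, and Peli1 at -1.81, 1.03, -0.94 and -0.47. Map3k7, Ripk1, Tab3 and Traf6 had these signs as well, and the other kinase and ubiquitin ligase genes did not. Ly86, the partner of Cd180 on B cells and myeloid cells, was at -1.25, 1.40, -1.35 and -1.19.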
